A study of Mus musculus with 2 samples.

Results

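The expression of 10 genes of the Hedgehog pathway was described in 2 single-cell RNA libraries of the embryonic mouse forebrain. The genes are Shh, Ptch1, Gli1, Gli2, Gli3, Hhip, Smo, Boc, Cdon and Gas1, chosen by name, and all 10 were found among the 28001 features of the first library and the 32286 of the second. The first library was made from septal explants of C57BL/6J embryos, the labels giving their genotype as wild-type. It pooled 8 embryos at E11.5 carrying PGKCre;Rosa26YFP, in which a ubiquitously driven Cre recombinase turns on YFP, with 4 embryos at E12.5 carrying Dbx1Cre;Rosa26tdTomato, in which the red reporter marks cells derived from progenitors that expressed Dbx1. Each stage came from 2 litters. The second library was made from the telencephalic vesicle, the embryonic precursor of the cerebral hemispheres, of 3 wild-type embryos from 2 litters, labelled E12 and given as E11.5 to E12 in the methods. About 10000 and 20000 cells were put into the droplet runs, with version 2 and version 3.1 of the 3′ kit. Each tissue has 1 library and its embryos cannot be told apart, so that no difference has a replicate check and no significance test was made.

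Hedgehog signalling starts with a secreted ligand, Sonic hedgehog (Shh in the brain), made by ventral cells. The ligand binds Patched1 (Ptch1), which otherwise holds the transducer Smoothened (Smo) inactive, and Boc, Cdon and Gas1 are cell surface coreceptors that help it to bind. The signal decides whether the transcription factors Gli2 and Gli3 act as activators or repressors, with Gli3 known mainly as a repressor that keeps the dorsal telencephalon free of ventral identity. Gli1, Ptch1 and Hhip, a membrane protein that traps the ligand, are themselves switched on by the signal and are commonly read as its output. In the ventral telencephalon, the transcription factor Nkx2-1 marks the medial ganglionic eminence and preoptic region, where Shh is made, and its neurons include those with Lhx6 and Lhx8. Emx1 marks dorsal (pallial) progenitors, Gsx2 those of the lateral ganglionic eminence, and Fgf8, Fgf17 and Fgf18 the rostral and septal midline. Lmx1a, Wnt3a and Wnt2b mark the cortical hem at the dorsal midline, and Sfrp2, Dbx1 and Fgf7 the antihem at the boundary of pallium and subpallium.

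The counts are of UMIs, molecular tags that let each captured transcript be counted once in a cell. After filters on mitochondrial share and doublets, 5384 of 5827 barcodes were kept in the septal explants and 11758 of 14283 in the vesicle, with medians of 12868.5 and 9058.5 UMIs per cell, and 1 barcode sequence occurs in both libraries. A balance of 9 progenitor genes against 11 neuronal genes gave 3606 progenitors and 1228 neurons in the septal explants and 7919 and 1790 in the vesicle. Among them, 161 and 382 cells lay within 0.5 log2 units of the threshold. Progenitors and neurons were then divided by gates, that is by holding at least 2 UMIs of the marker genes named above (3 for Sfrp2, Dbx1 and Fgf7), and a cell in exactly 1 gate belongs to its class. Because a gate needs UMIs, deep cells enter more gates. The median depth was 8487 UMIs in the 4289 vesicle progenitors in no gate and 31584 in the 803 in several gates, and the part of depth in who enters a class was not tested. The gates were checked with markers they did not use. In Nkx2-1-gated progenitors Olig2 was 5.42 times as high as in other progenitors of the septal explants and 5.09 times as high in the vesicle, and Neurog2 was 6.17 and 2.69 times as high in Emx1-gated progenitors. The Sfrp2/Dbx1/Fgf7 gate of the septal explants did not pass, with Pax6 at 1.09 times and Nrg1 at 0.772 times the level of other progenitors and Tgfa at 0 UMIs, so that its cells are called only by the gate. The neuron gates of the septal explants each had 1 marker that was not higher, Zfp503 (0.112 times) for Isl1/Ebf1, Calb2 (0.265 times) for Trp73/Lhx1/Lhx5 and Tbr1 (1.06 times) for Neurod6/Neurod2. In the vesicle the intervals of Gsx1 in the Gsx2 gate (1.36 times, 0.946 to 1.90) and Tgfa in the Sfrp2/Dbx1/Fgf7 gate (1.49 times, 0.726 to 2.77) included 1.

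Levels are given as CPM, for which the cells of a class were summed and each gene scaled by their total UMIs, with exact Poisson 95% intervals, and ratios with exact conditional intervals. All intervals cover counting error only, not differences between embryos. Levels were not compared between the libraries, which differ in kit, software and stage, nor between genes. As a background, cells gated on globin genes were used, since red blood cells should not make these transcripts. In the vesicle these cells were shallower than Emx1-gated progenitors, whose median depth was 17257 UMIs. Depth was not matched, so that a CPM overlapping theirs does not show that a class lacks the transcript. In the 496 globin-gated cells of the vesicle Shh was at 1.001 CPM (0.206 to 2.93), Ptch1 at 25.7, Gli3 at 38.4, Gas1 at 12.7 and Smo at 10.3, and Gli1 and Hhip had no UMI. In the 26 globin-gated cells of the septal explants Gas1 was at 43.9 CPM, Smo at 17.8 and Ptch1 at 4.12.

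Shh, the ligand, was found mostly in the Nkx2-1 class and in the neurons gated on Lhx6, Lhx8 or Nkx2-1. In the vesicle 1221 of its 2093 UMIs (58.3%) lay in 248 of the 1058 Nkx2-1-gated progenitors, and 338 (16.2%) in 142 of the 292 neurons of that gate, any of whose 3 genes suffices. The level was 169.2 CPM (interval 151.7 to 188.2) in these neurons and 81.9 CPM (77.4 to 86.6) in the progenitors, so that the intervals of both do not overlap. Among neural classes in 1 gate no other passed 1.69 CPM, the level of Isl1/Ebf1-gated neurons, and Emx1-gated progenitors had 3 UMIs in 349 cells (0.304 CPM, 0.0627 to 0.888), within the interval of the globin-gated cells. Progenitors in several gates held a further 271 UMIs, and those in no gate 105. Mesenchyme-gated cells had 38 (4.49 CPM) and endothelial-gated ones 16 (4.05 CPM).

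The share of cells with a Shh UMI gave the same order. It was 48.6% in Lhx6/Lhx8/Nkx2-1-gated neurons (exact Clopper-Pearson interval 42.8 to 54.5%) at a median depth of 6196.5 UMIs and 23.4% in Nkx2-1-gated progenitors (20.9 to 26.1%) at a median of 10834, against 0.605% in globin-gated cells at 4838.5. With every cell thinned to 3500 UMIs, which left out 8 and 9 shallower cells, the shares were 35.2% and 13.4%, and that of 361 globin-gated cells was 0.277%. The order of neurons over progenitors was therefore also seen at equal depth.

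In the septal explants Shh was rare, with 38 UMIs in 16 of 5384 cells. Of these, 30 UMIs lay in 10 of the 161 Nkx2-1-gated progenitors (14.7 CPM, interval 9.88 to 20.9) and 8 in 6 progenitors in several gates. No UMI was found in any other class. With cells thinned to 8000 UMIs, 0 of 787 Emx1-gated progenitors allows a share of cells with a UMI of up to 0.381%, and 0 of 751 Fgf8/17/18-gated ones up to 0.400%. The Lhx6/Lhx8/Nkx2-1 gate held only 6 neurons there, so that the neuronal Shh of the vesicle has no counterpart to be set against.

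**Figure D1:**
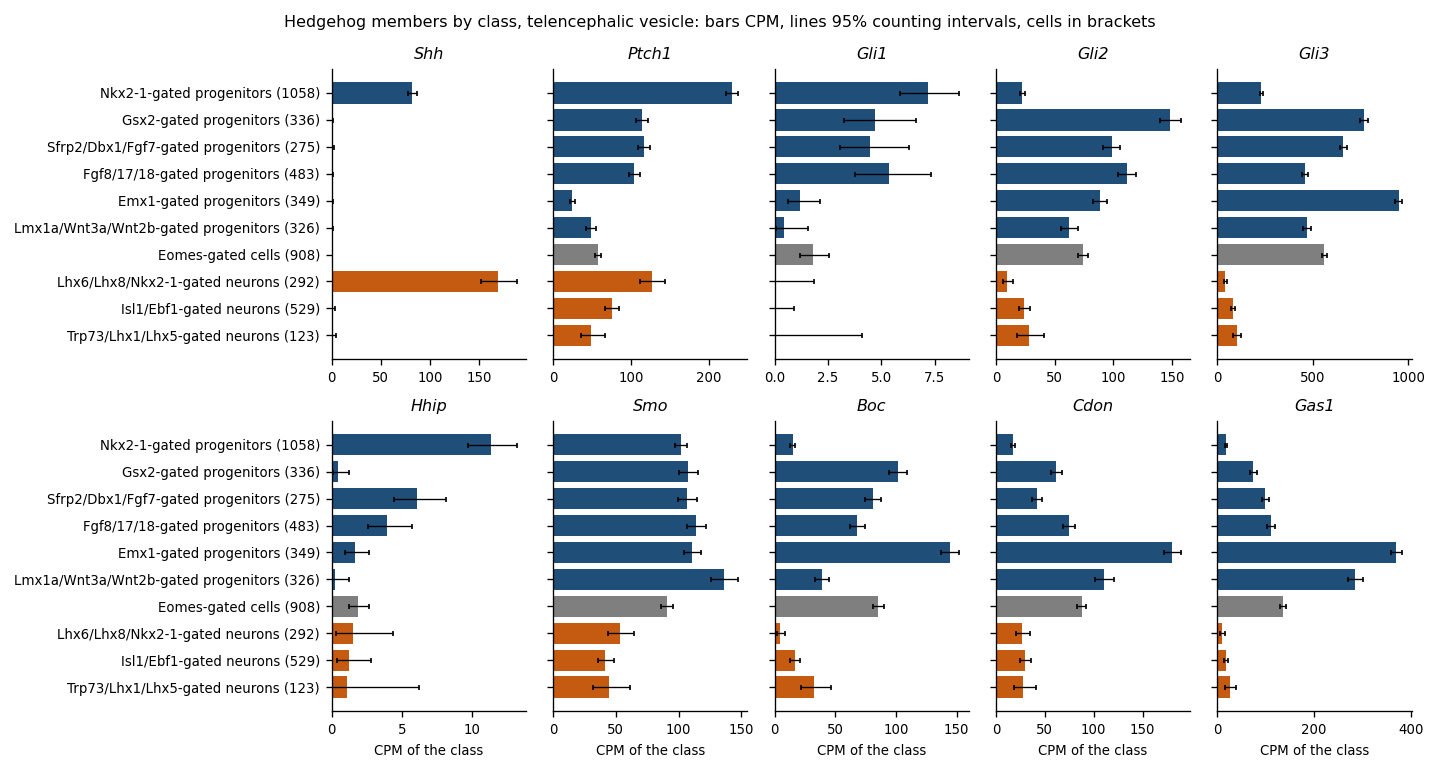
CPM of each Hedgehog member (horizontal axes, a scale for each gene) in the gated classes of the telencephalic vesicle with at least 50 cells; bars are summed levels, lines exact Poisson 95% intervals, blue progenitors, grey Eomes-gated cells and orange neurons, with the number of cells in brackets. Shh stands in Nkx2-1-gated progenitors (81.9 CPM) and Lhx6/Lhx8/Nkx2-1-gated neurons (169.2 CPM), while Gas1 is at 370.1 CPM in Emx1-gated progenitors and 17.7 CPM in Nkx2-1-gated ones.

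The genes that the signal switches on were highest in the Nkx2-1 class among the neural classes of the vesicle but were also found beyond it. Ptch1, the receptor, was at 229.6 CPM (222.0 to 237.4) in Nkx2-1-gated progenitors. A group of 3 classes followed, with 116.2 CPM in Sfrp2/Dbx1/Fgf7-gated, 113.6 in Gsx2-gated and 104.3 in Fgf8/17/18-gated progenitors, whose intervals overlap one another and that of the Lhx6/Lhx8/Nkx2-1-gated neurons at 126.7. Lmx1a/Wnt3a/Wnt2b-gated progenitors had 48.5 CPM. Emx1-gated progenitors were lowest with 24.3 CPM (21.3 to 27.6), an interval that overlaps that of the shallower globin-gated cells (20.3 to 32.1).

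Gli1, the transcription factor whose own transcription is a common readout, was also highest in the Nkx2-1 class among neural classes, at a low level. It was at 7.18 CPM (5.88 to 8.67) in Nkx2-1-gated progenitors of the vesicle, 5.35 in Fgf8/17/18-gated, 4.71 in Gsx2-gated and 4.48 in Sfrp2/Dbx1/Fgf7-gated progenitors, and each of these intervals overlaps its neighbour in the order. Emx1-gated progenitors had 1.22 CPM (0.628 to 2.12) and the 326 Lmx1a/Wnt3a/Wnt2b-gated ones 2 UMIs. No Gli1 UMI was found in Lhx6/Lhx8/Nkx2-1-gated, Isl1/Ebf1-gated or Trp73/Lhx1/Lhx5-gated neurons. The first of these came next after the Nkx2-1 class for Ptch1, so that Gli1 and Ptch1 differ in their order below that class.

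Hhip, the ligand trap, was also at a low level, with few UMIs in Gsx2-gated progenitors. Nkx2-1-gated progenitors of the vesicle had 11.3 CPM (9.69 to 13.2) and Sfrp2/Dbx1/Fgf7-gated ones 6.11 (4.46 to 8.18), and these intervals do not overlap. Fgf8/17/18-gated progenitors had 3.94 CPM (2.62 to 5.70), whereas Gsx2-gated ones, whose Ptch1 and Gli1 intervals overlap theirs, had 3 UMIs (0.428 CPM, 0.0883 to 1.25). Between Gsx2-gated and Fgf8/17/18-gated progenitors the Hhip intervals are thus clear of each other.

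The same readouts were measured with fewer UMIs in the septal explants. Ptch1 was at 45.4 CPM (36.6 to 55.6) in Nkx2-1-gated progenitors, 17.6 (15.3 to 20.2) in Fgf8/17/18-gated, 13.4 in Gsx2-gated and 3.01 (2.17 to 4.07) in Emx1-gated ones. Gli1 was at 13.2 CPM (8.69 to 19.2) in Nkx2-1-gated, 7.53 (3.44 to 14.3) in Sfrp2/Dbx1/Fgf7-gated, 5.63 (4.35 to 7.18) in Fgf8/17/18-gated and 0.0718 in Emx1-gated progenitors, the last resting on 1 UMI in 815 cells. Hhip had 11 UMIs in the whole library, 5 of them in Fgf8/17/18-gated progenitors, and none in Nkx2-1-gated ones, where 0 of 139 thinned cells allows a share of up to 2.16%. Hhip was therefore below what most comparisons in this library could use.

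**Figure D2:**
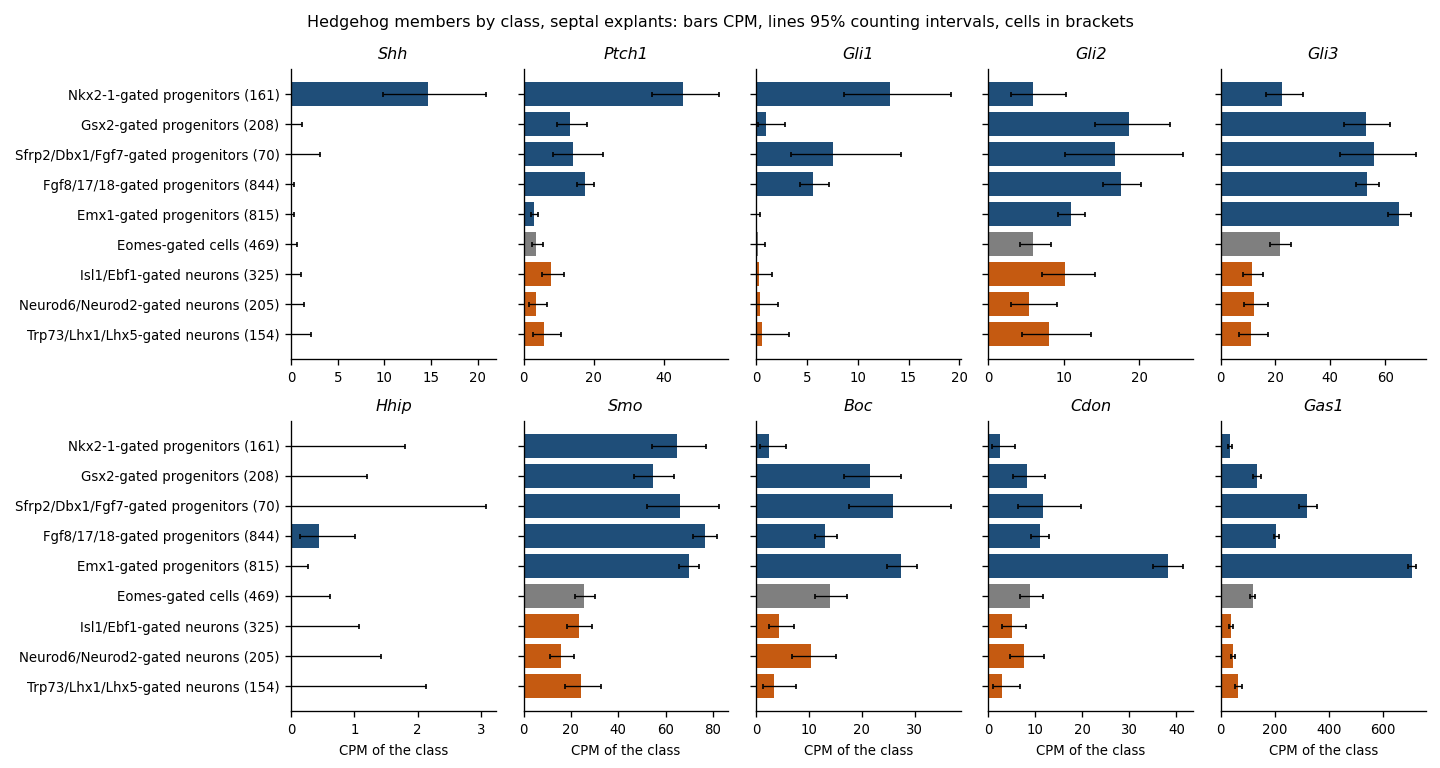
CPM of each Hedgehog member (horizontal axes, a scale for each gene) in the gated classes of the septal explants with at least 50 cells, drawn as for the vesicle with exact Poisson 95% intervals and the number of cells in brackets. Ptch1 goes from 45.4 CPM in Nkx2-1-gated to 3.01 CPM in Emx1-gated progenitors, and Gas1 from 33.7 to 707.2 CPM in the opposite order.

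Gli2 and Gli3, the factors that carry the signal to the nucleus, were high in progenitors outside the Nkx2-1 class. In the vesicle Gli3 was highest in Emx1-gated progenitors at 948.2 CPM (929.1 to 967.6), then in Gsx2-gated at 767.7 (747.3 to 788.4) and Sfrp2/Dbx1/Fgf7-gated ones at 659.8. Lmx1a/Wnt3a/Wnt2b-gated (468.1) and Fgf8/17/18-gated progenitors (456.4) had overlapping intervals, and Nkx2-1-gated ones followed at 229.6 (221.9 to 237.4). The Lhx6/Lhx8/Nkx2-1-gated neurons had 41.6 CPM (33.1 to 51.5), an interval that overlaps that of the shallower globin-gated cells.

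Gli2 differed from Gli3 in which class led. It was highest in Gsx2-gated progenitors of the vesicle at 148.3 CPM (139.4 to 157.5), ahead of Fgf8/17/18-gated (111.5), Sfrp2/Dbx1/Fgf7-gated (98.6) and Emx1-gated ones (88.3, 82.6 to 94.4). Nkx2-1-gated progenitors had 22.5 CPM (20.1 to 25.0). Eomes-gated cells, which were set apart without the division into progenitors and neurons, had 73.8 CPM of Gli2 and 560.4 CPM of Gli3. In the septal explants Gli3 was at 65.1 CPM in Emx1-gated and 22.5 CPM in Nkx2-1-gated progenitors, whereas Gli2 lay between 10.9 and 18.6 CPM in the 4 other progenitor classes and at 5.86 (3.03 to 10.2) in the Nkx2-1-gated one.

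The 3 coreceptors shared the ends of their order over the progenitor gates. In the vesicle Emx1-gated progenitors were highest for all of them, with Boc at 144.5 CPM (137.1 to 152.2), Cdon at 180.6 (172.3 to 189.2) and Gas1 at 370.1 (358.2 to 382.3). Lmx1a/Wnt3a/Wnt2b-gated progenitors were next for Cdon (111.0) and Gas1 (284.8) but had only 39.0 CPM of Boc, for which Gsx2-gated progenitors came next with 101.2. Nkx2-1-gated progenitors were lowest among progenitors for all 3, with 15.0 CPM of Boc, 17.5 of Cdon and 17.7 of Gas1. The last interval, 15.6 to 19.97 CPM, overlaps that of the globin-gated cells (8.97 to 17.4).

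The septal explants gave the same ends of this order. Gas1 was at 707.2 CPM in Emx1-gated, 206.3 in Fgf8/17/18-gated, 133.8 in Gsx2-gated and 33.7 in Nkx2-1-gated progenitors, the last within the interval of the globin-gated cells (30.0 to 62.0). Cdon went from 38.1 CPM in Emx1-gated to 2.44 in Nkx2-1-gated progenitors and Boc from 27.4 to 2.44, with 5 UMIs of each in the latter. Boc was also at 25.9 CPM (17.6 to 36.8) in Sfrp2/Dbx1/Fgf7-gated and 21.6 (16.7 to 27.4) in Gsx2-gated progenitors. Both intervals overlap that of the Emx1-gated ones (24.7 to 30.3), while Fgf8/17/18-gated progenitors had 13.1 CPM. Smo, the transducer, had the narrowest range over the progenitor gates. Its level lay between 101.7 and 136.1 CPM over the 6 progenitor gates of the vesicle and between 54.5 and 76.6 CPM over the 5 progenitor gates of the septal explants with at least 50 cells.

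Nkx2-1-gated progenitors, the progenitor class highest in Shh, and Emx1-gated ones, gated on a pallial gene, were then compared directly. A gene was called when it differed by at least 2-fold with an interval clear of 1, among genes with at least 20 UMIs over both classes. A gene can reach this minimum through 1 class alone, so that the call of a rare gene is not independent of the minimum. In the vesicle all 10 members could be compared, with 4 higher in the Nkx2-1 class, where 6.71% of 13972 genes were higher, and 5 lower, where 4.51% were. Shh was 269.5 times as high (interval 92.0 to 1309, resting on 3 UMIs in the Emx1 class), Ptch1 9.45 times (8.29 to 10.8), Hhip 6.99 times (4.18 to 12.52) and Gli1 5.90 times (3.24 to 11.8). The members called lower were Gas1 at 0.0478 times (0.0421 to 0.0542), Cdon at 0.0969, Boc at 0.104, Gli3 at 0.242 and Gli2 at 0.254 times the Emx1 level. Smo was at 0.917 times (0.848 to 0.992). In thinned cells Gli1 was at 3.07 times with an interval from 0.948 to 15.8 and was no longer called. Shh, Hhip and Gli1 reached the 20 UMIs only through the Nkx2-1 class.

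Of the members, 9 reached 20 UMIs in the septal explants. Of them 3 were higher in the Nkx2-1 class, where 5.13% of 11512 genes were, and 4 were lower, where 3.55% were. Shh and Gli1 reached the 20 UMIs only through the Nkx2-1 class. Ptch1 was 15.1 times as high (10.4 to 22.2). Gli1 had 27 UMIs against 1, a ratio of 183.7 with an interval from 30.3 to 7521, and Shh, with 30 UMIs against 0, was at least 68.0-fold higher when the 0 is set to 3 counts over the class. Gas1 was at 0.0476 times (0.0370 to 0.0603), Cdon at 0.0641, Boc at 0.0891 and Gli3 at 0.345 times. Gli2 at 0.537 times (0.272 to 0.966) stayed under 2-fold, though it passed with a gate of 3 UMIs (0.478 times), with means over cells (0.421) and in thinned cells (0.348), and Smo was at 0.931 times (0.771 to 1.12). With a gate of 1 UMI Gli1 was at 28.8 times (6.92 to 168.6) on fewer than 20 UMIs. Each of the 7 members called here was called in the same direction in the vesicle. The share of all called genes for which this held was not computed.

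**Figure D3:**
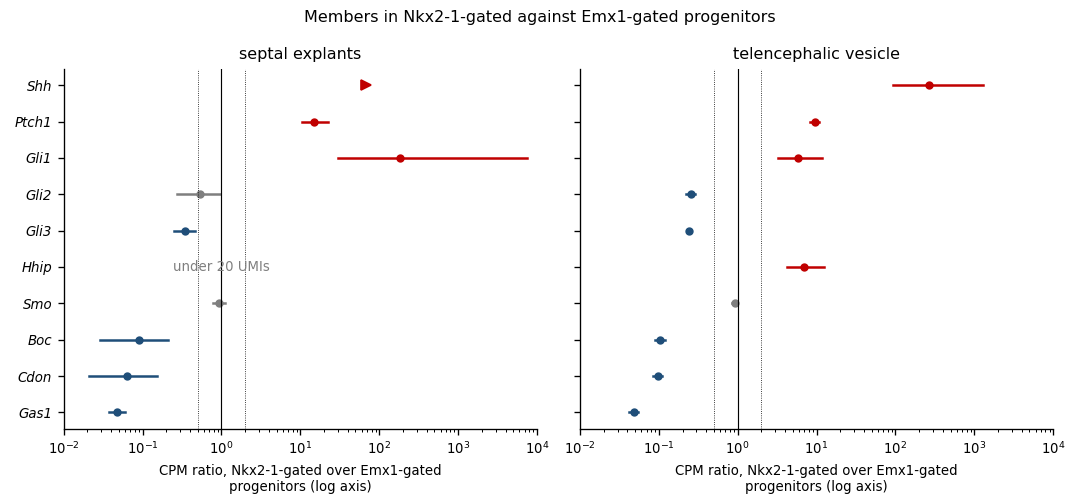
CPM ratio of Nkx2-1-gated over Emx1-gated progenitors (log axis) for each member in the septal explants (left) and the telencephalic vesicle (right); points are ratios, lines exact conditional 95% intervals, dotted lines 2-fold, red called higher, blue called lower, grey not called, and the arrowhead a lower bound against 0 UMIs. Ptch1 stands at 15.1 and 9.45 times, Smo at 0.931 and 0.917, and Gas1 at 0.0476 and 0.0478.

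Gsx2-gated progenitors, of the lateral eminence, differed from Emx1-gated ones in fewer members. In the vesicle 2 of 8 members tested were higher, beside 4.36% of genes, and 2 lower, beside 3.59%. Ptch1 was 4.67 times (4.04 to 5.42) and Gli1 3.87 times (1.95 to 8.24) as high, Gas1 was at 0.202 and Cdon at 0.341 times, and Gli3 at 0.810 times (0.783 to 0.837) was not called. The Gli1 value rests on 33 against 12 UMIs, and in thinned cells it was 0.691 with an interval from 0.0577 to 6.03, so that the direction was not fixed at that depth. Of 7 tested in the septal explants 1 was higher, beside 2.59% of genes, and 2 lower, beside 3.32%, with Ptch1 at 4.44 times (2.82 to 6.998), Gas1 at 0.189 and Cdon at 0.214 times. Gli2 was higher by less than 2-fold in both, at 1.71 times (1.24 to 2.33) in the septal explants and 1.68 times (1.53 to 1.84) in the vesicle.

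Fgf8/17/18-gated progenitors had Ptch1 and Gli1 with little or no Shh. Cells that were also in the Nkx2-1 gate, 154 in the septal explants and 93 in the vesicle, are not in this class. Shh in those cells is therefore not counted here. Of 8 members tested in the septal explants 2 were higher than in Emx1-gated progenitors, beside 8.65% of genes, and 3 lower, beside 2.75%. Ptch1, with 203 against 42 UMIs, was 5.84 times as high (4.17 to 8.34), and Gli1, with 65 against 1, 78.5 times (13.6 to 3147), while neither class had a Shh UMI. In the vesicle 3 of 9 were higher, beside 9.40% of genes, and 4 lower, beside 3.01%. Ptch1 was 4.29 times (3.70 to 4.98), Gli1 4.40 times (2.25 to 9.25) and Hhip 2.43 times (1.27 to 4.81) as high, of which the last 2 lost the call in thinned cells, at 1.26 (interval from 0.244) and 3.77 times (from 0.422). Hhip also lost it with a gate of 3 UMIs, at 1.23 times. Boc, Cdon and Gas1 were lower in both libraries, at 0.477, 0.287 and 0.292 times in the septal explants and 0.469, 0.412 and 0.299 times in the vesicle, and Gli3 only in the vesicle, at 0.481 times against 0.821 in the explants, a difference between libraries that was not tested. Boc of the explants was at 0.529 times with a gate of 1 UMI, and Cdon of the vesicle at 0.512 times in thinned cells and 0.505 with means over cells, where each lost the call.

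Lmx1a/Wnt3a/Wnt2b-gated progenitors could be compared in the vesicle alone, since the septal explants had 16 such cells. No member of 7 tested was higher than in Emx1-gated progenitors, beside 8.05% of genes, and 2 were lower, beside 5.45%. Boc was at 0.270 times (0.229 to 0.316) and Gli3 at 0.494 times (0.471 to 0.518). Ptch1 lay just under the call at 1.99 times (1.65 to 2.40) and passed it under 3 alternatives, at 2.03 to 2.23 times. Gli3 lost the call under 5 of the alternatives, at 0.505 to 0.538 times.

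Progenitors were then set against neurons as a whole. All 9 members tested in the septal explants were higher in progenitors, where 15.0% of 14027 genes were, and none was lower, where 16.5% were. Shh, with 38 UMIs against 0, and Gli1, with 162 against 5, reached the minimum of UMIs there only through the progenitors. The calls of Shh and Gli1 are therefore not independent of that minimum. Gas1 was 8.62 times (7.97 to 9.33), Gli1 8.36 times (3.51 to 26.1), Gli3 4.94 times and Smo 3.50 times as high. Ptch1 at 2.03 and Gli2 at 2.04 times stood close to the limit and lost the call under 2 and 5 alternatives, at 1.94 to 1.99 and 1.70 to 1.99 times. In the vesicle 8 of 10 were higher, beside 15.0% of 17686 genes, and 1 lower, beside 16.0%. Gli1 was 14.5 times (5.61 to 53.2), Gli3 7.60 times (7.14 to 8.09), Gas1 7.20 times and Boc 4.57 times as high, Ptch1 at 1.32 times (1.24 to 1.40) was not called, and Shh was lower, at 0.395 times (0.354 to 0.442). Cdon, 2.62 times as high, was at 1.98 times with means over cells.

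Within the ventral lineage this was seen member by member. Against the Lhx6/Lhx8/Nkx2-1-gated neurons of the vesicle, Nkx2-1-gated progenitors were higher in 5 of 10 members, beside 16.0% of 13370 genes, and lower in 1, beside 12.9%. The one was Shh, at 0.484 times (0.429 to 0.548), which with a gate of at least 3 UMIs was at 0.532 times and no longer called. Gli3 was 5.52 times (4.44 to 6.95) as high, Hhip 7.55 times (2.54 to 37.0, with 3 UMIs in the neurons) and Gli1, with 107 against 0 UMIs, at least 4.78-fold. Gli2 at 2.36 and Boc at 3.32 times lost the call in thinned cells, at 1.93 and 1.76 times. Ptch1 at 1.81 (1.60 to 2.07), Smo at 1.90, Gas1 at 1.77 and Cdon at 0.647 times (0.481 to 0.885) were not called. Gas1 passed with a gate of 1 UMI (2.48 times) and without cells near the threshold (2.02 times), and Cdon in thinned cells (0.458 times) and with means over cells (0.458 times).

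The same cells were divided into 5 bins of 270 along the progenitor-to-neuron balance, of which the last held neurons alone. Shh was at 112.5 CPM (100.7 to 125.3) in the first bin, between 66.8 and 78.2 in the middle 3, and at 184.0 (164.8 to 204.9) in the last, so that it was high at both ends. Gli2 went the other way, from 7.12 CPM (4.41 to 10.9) in the first bin to 41.4 (34.9 to 48.7) in the fourth and 6.61 in the last. Hhip was also highest in the fourth bin at 18.3 CPM (14.1 to 23.3), against 6.10 in the first and 1 UMI in the last.

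Ptch1 stayed between 211.7 and 238.7 CPM over the first 4 bins and was at 130.6 (114.5 to 148.3) in the last. Gli3 went from 165.7 CPM to 260.4 in the third bin and 39.1 in the last, and Gli1 lay between 4.68 and 9.42 CPM with overlapping intervals before its 0 UMIs in the last. With 10 bins the highest bin was in the same place for 7 of the members and moved for Gli3, Smo and Boc. For the septal explants the same bins held 33 or 34 cells each. Shh had 16, 8 and 6 UMIs in the first 3 and 0 in the last 2. Gli1 lay between 11.8 and 14.0 CPM in all 5, but on 6, 6, 6, 5 and 4 UMIs with wide overlapping intervals. Its highest bin moved with 10 bins.

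**Figure D4:**
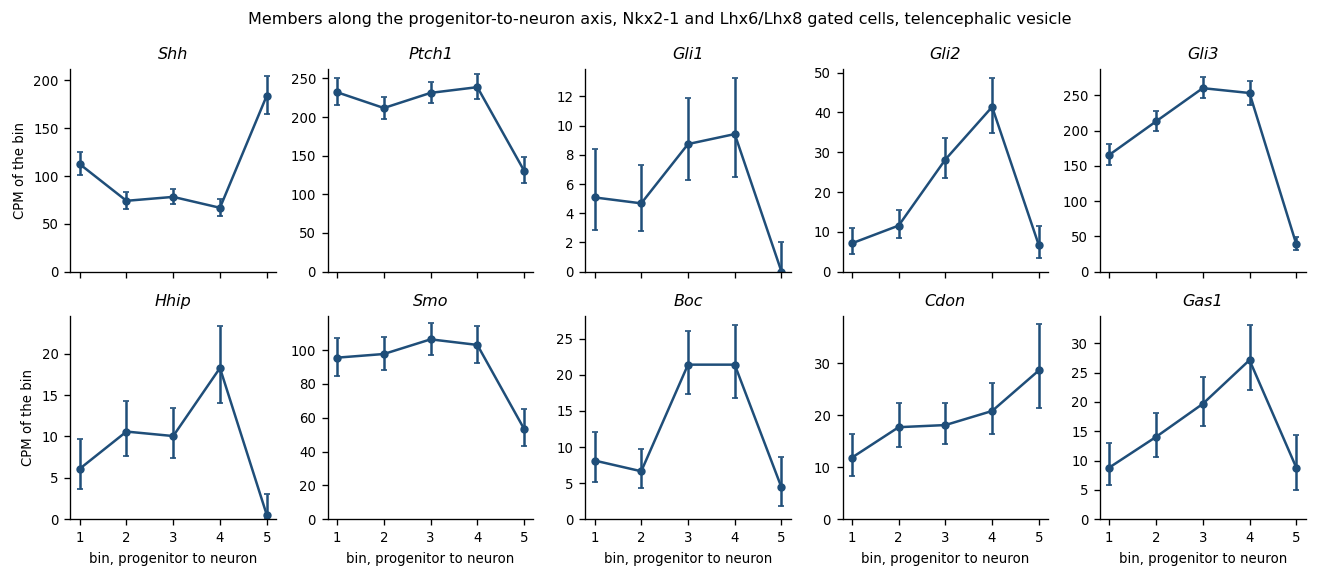
CPM (vertical axes, a scale for each gene) of each member in 5 bins of 270 cells from the progenitor to the neuron end, over the Nkx2-1-gated progenitors and Lhx6/Lhx8/Nkx2-1-gated neurons of the telencephalic vesicle; points are summed levels and lines exact Poisson 95% intervals. Shh is at 112.5 CPM in the first bin and 184.0 in the last, whereas Gli2 and Hhip are highest in the fourth, at 41.4 and 18.3 CPM.

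Cells with the ligand were set beside cells of the same gate without it, a comparison chosen after the data were seen. In the vesicle 248 Nkx2-1-gated progenitors had a Shh UMI and 810 had none, with median depths of 12381.5 and 10382.5 UMIs. Those with Shh had 289.3 CPM of Ptch1 against 207.2, a ratio of 1.40 (1.3 to 1.498). Their Smo was at 1.12 times (1.004 to 1.256). They had less Gli2, with 12.04 against 26.4 CPM (0.457 times, 0.33 to 0.620), less Gli3, with 143.3 against 261.9 (0.547 times, 0.4995 to 0.598), less Boc (0.547 times, 0.376 to 0.779) and less Gas1 (0.592 times, 0.424 to 0.813). In thinned cells the ratios of Gli2, Boc and Gas1 were 0.358, 0.258 and 0.700 and their intervals no longer cleared 1.

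Gli1 at 0.613 times (0.357 to 1.01), Hhip at 0.721 (0.485 to 1.05) and Cdon at 0.958 times (0.717 to 1.27) had intervals that include 1, and with at least 2 Shh UMIs Gli1 was at 0.365 times with an interval clear of 1. Nkx2-1 itself, the gene of the gate, was 1.11 times as high (1.05 to 1.18) in cells with Shh, and their median position on the axis was -1.70 against -1.43 log2 units. The 10 cells with Shh in the septal explants had 15 Ptch1 UMIs (89.1 CPM against 41.5, a ratio of 2.15, 1.15 to 3.76) and no Gli1 UMI, against 27 in the 151 cells without, an interval that reaches 1.64 times. Among Lhx6/Lhx8/Nkx2-1-gated neurons, 142 with and 150 without Shh had Ptch1 at 130.0 and 123.4 CPM (1.05 times, 0.817 to 1.36), and Cdon at 37.9 and 16.7 (2.28 times, 1.25 to 4.31), and Cdon was at 1.87 times with an interval from 0.920 at 2 Shh UMIs. Those with Shh had 1 Gli2 UMI against 18 (0.0581 times, 0.00139 to 0.368), less Gli3 (0.561 times, 0.345 to 0.897), less Smo (0.508 times, 0.329 to 0.771) and less Gas1 (0.184 times, 0.0346 to 0.638). In thinned cells these ratios were 0.263, 0.682, 0.711 and 0.409 and none cleared 1. Nkx2-1 was at 0.768 times (0.665 to 0.886) in the neurons with Shh. Their median position on the axis was 4.12 against 2.45.

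How members vary from cell to cell was described in all progenitors thinned to equal depth, 7079 in the vesicle and 3298 in the septal explants, as the number of cells with both members over the number expected if they were unrelated within each gate. Cells in no gate and cells in several gates entered as 1 group each (4289 and 803 vesicle cells before thinning). These groups can mix regions, so that a ratio can still reflect region, which was not tested. In the vesicle 11 of 45 pairs were above 1 and 11 below it with intervals clear of 1. Pairs of other genes were not counted, so that these numbers have no background share and are not read as particular to the members. Ptch1 and Hhip shared 65 cells where 38.2 were expected (1.70 times, 1.31 to 2.17), Ptch1 and Gli1 48 where 33.4 were (1.44, 1.06 to 1.91), and Shh and Ptch1 120 where 85.0 were (1.41, 1.17 to 1.69). The coreceptors also met more often, Cdon with Gas1 in 605 cells against 415.7 (1.46, 1.34 to 1.58) and Boc with Cdon in 282 against 218.9 (1.29, 1.14 to 1.45).

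Other pairs shared fewer cells than expected. Shh and Boc shared 1 cell where 14.4 were expected (0.0694 times, 0.00176 to 0.387), Shh and Gli2 4 where 19.3 were, Gli1 and Cdon 4 where 13.7 were, and Hhip and Gas1 8 where 24.8 were. The intervals of Shh with Cdon (0.841), Gli1 with Boc (0.836), Hhip with Boc (0.840) and Hhip with Cdon (0.606) included 1. Of the pairs in the septal explants 4 were above 1 and 3 below, again without a background share. Ptch1 with Gli1 (19 cells, 10.7 expected, 1.78 times, 1.07 to 2.78) and Boc with Cdon (1.29, 1.04 to 1.58) were again among the former, and Ptch1 with Gas1 (0.801) and Gli1 with Gas1 (0.632) among the latter. Smo was in none of these pairs in either library. The cells of a gate share a library and can differ in position and stage, which was not tested.

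**Figure D5:**
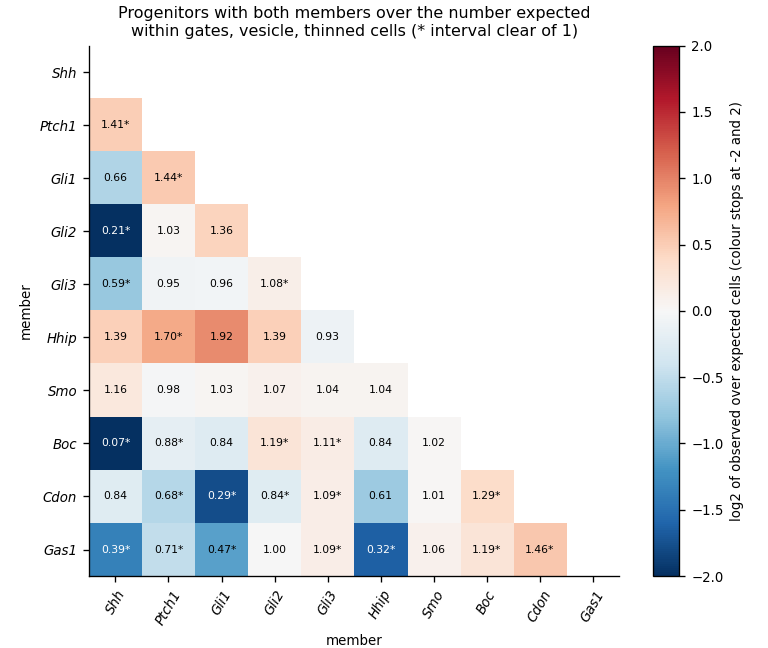
Number of vesicle progenitors with at least 1 UMI of both members, over the number expected within gates, for each pair of members in 7079 cells thinned to 3500 UMIs; numbers are ratios, colours their log2, and a star marks an exact Poisson 95% interval clear of 1. Cells in no gate and cells in several gates each entered as 1 group. Ptch1 with Hhip is at 1.70 and Cdon with Gas1 at 1.46, whereas Shh with Boc is at 0.07.

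Other genes of the pathway were followed in 5 lists with 46 genes. In the list of membrane regulators, Lrp2, a large endocytic receptor that binds Shh, was higher in the Nkx2-1 class than in the Emx1 class in both libraries, at 17.6 against 0.287 CPM in the septal explants (61.2 times, 22.0 to 236.8) and 72.1 against 2.43 CPM in the vesicle (29.7 times, 19.8 to 46.5). It was also higher in the Fgf8/17/18 class, by 23.9 and 15.5 times. Gpc3, a proteoglycan known to bind the ligand, was called in the Nkx2-1 class of the septal explants (2.90 times, 1.90 to 4.36).

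Among the genes known as targets, Olig2, a transcription factor of ventral progenitors, was 42.2 times (31.3 to 57.8) as high in the Nkx2-1 class of the septal explants and 76.3 times (49.3 to 125.1) in that of the vesicle, and Ccnd1, which encodes a cyclin, 2.64 and 2.25 times. Olig2 had also served to check the gate. In the vesicle Nkx6-2, another ventral transcription factor and check gene, was 85.2 times as high (28.9 to 414.9, with 3 UMIs in the Emx1 class) and Bcl2 2.57 times. Mycn was lower, at 0.453 times, in the septal explants. In total 2 of 4 tested targets were higher, beside 5.13% of genes, and 1 lower, beside 3.55%, in the septal explants, and 4 of 5 higher in the vesicle, beside 6.71%. None of the 8 genes of the cilium and of the 12 genes that act on Gli inside the cell was called between the Nkx2-1 and Emx1 classes in either library, beside the shares of all genes given above (4.51% lower in the vesicle).

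The Fgf8/17/18 class differed from the Emx1 class in further pathway genes. The shares of all genes called in each comparison of this paragraph are those given with the members above. Of the targets, Olig2 (9.99 and 9.24 times) and Bcl2 (2.23 and 2.41 times) were higher in the septal explants and the vesicle, Nkx6-2 in the vesicle (14.4 times, with 3 UMIs in the Emx1 class), and Mycn was lower (0.404 and 0.384 times). Gpc3 (3.42 and 3.84 times), Scube1 (2.67 and 2.62 times) and the kinase gene Stk36 (2.14 and 2.08 times) were higher in both. In the Gsx2 class Olig2 was higher (15.3 and 20.9 times), together with Ccnd1 (2.16 times) and Scube1 (2.76 times) in the septal explants and Lrp2 (3.82 times) and Nkx6-2 (14.1 times, with 3 UMIs in the Emx1 class) in the vesicle, and Gpr161, a receptor of the cilium that holds the pathway back, was lower in the septal explants (0.455 times). The Lmx1a/Wnt3a/Wnt2b class of the vesicle had more Lrp2 (20.2 times), Gpc3 (4.60 times) and Scube3 (2.34 times) and less Ccnd1 (0.385 times) and Mycn (0.281 times).

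Of the genes for ligand processing and release, 2 of 4 tested were higher in the Nkx2-1 class of the septal explants, beside 5.13% of genes. They were Hhat, which attaches a lipid to the ligand (2.66 times, 1.08 to 5.97), and Scube1 (3.68 times, 2.33 to 5.71). None of 4 was called in the vesicle, beside 6.71% of genes higher and 4.51% lower, a difference between libraries that was not tested. Between progenitors and neurons, 15.0% of all genes were higher in progenitors in each library, and 16.5% and 16.0% lower. Disp2, a member of the Dispatched family, was lower in progenitors at 0.0344 and 0.0446 times, and Scube2 (0.122 and 0.102 times), Mapre3 (0.223 and 0.268 times) and Stk36 (0.276 and 0.309 times) were lower too. Kif3a (0.408 times), Dzip1 (0.425 times) and Gsk3b (0.478 times) were lower in the septal explants. Evc and Evc2, which act next to Smo in the cilium, were higher, at 7.78 and 3.72 times in the septal explants and 4.17 and 4.33 times in the vesicle. Kif7, a kinesin that acts on Gli, was also higher, at 3.60 and 3.46 times. Lrp2 (10.7 and 10.5 times) and Gpc3 (5.09 and 4.05 times) were higher in progenitors too. Of the targets, Olig2 (2.43 and 4.25 times) and Ccnd1 (3.30 and 4.38 times) were higher in both libraries, Mycn (2.07 times) in the septal explants and Bcl2 (2.32 times) in the vesicle. Nkx6-2, with 68 UMIs against 0, was at least 5.85-fold higher in the septal explants and 6.45 times as high in the vesicle. Scube1 was higher in progenitors of the septal explants (2.37 times).

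Between Nkx2-1-gated progenitors and Lhx6/Lhx8/Nkx2-1-gated neurons, 16.0% of all genes were higher in the progenitors and 12.9% lower. Of the lists, 4 of 10 membrane genes, 1 of 8 cilium genes and 5 of 5 tested targets were higher. Lower were 1 of 5 tested release genes, 1 of 8 cilium genes and 2 of 12 that act on Gli inside the cell. The calls in the release, cilium and inside lists are near the shares of all genes and are not read as particular to them. Lrp2 was at 72.1 against 6.01 CPM, and Gpc3 (4.38 times), Evc (2.97 times), Evc2 (3.59 times) and Kif7 (6.97 times, with 2 UMIs in the neurons) were higher. So were the targets Nkx6-2 (25.9 times, with 2 UMIs in the neurons), Olig2 (11.02 times), Ccnd1 (8.94 times), Mycn (3.25 times) and Bcl2 (2.47 times). Disp2 (0.0788 times), Mapre3 (0.243 times), Stk36 (0.385 times) and Kif3a (0.497 times) were lower.

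YFP was used to separate stages within the septal explants, since only the E11.5 embryos carry it. Progenitors with at least 3 YFP UMIs numbered 2079 and those with none 1107. As a check, 26 of the former and 168 of the latter held tdTomato, and cells without YFP can include E11.5 cells in which it was missed. Cdon was at 18.1 CPM in cells with YFP against 23.6 without (0.764 times, 0.671 to 0.871), Boc at 0.862 times (0.755 to 0.987) and Gas1 at 0.930 times (0.903 to 0.958). The intervals of Ptch1, Gli1, Gli2, Gli3 and Smo included 1 in all progenitors. In Emx1-gated progenitors alone Cdon was at 0.677 times (0.562 to 0.817) and Gas1 at 0.937 times (0.897 to 0.978). Boc was at 0.844 times there, with an interval that includes 1 (0.676 to 1.056). In Fgf8/17/18-gated progenitors Cdon was at 1.41 times with an interval that includes 1 (0.904 to 2.25). Boc was at 1.01 and Gas1 at 1.04 times in that class, and both intervals include 1. Gsx2-gated progenitors had Cdon at 0.861, Boc at 1.002 and Gas1 at 0.905 times, again with intervals that include 1. Shh had 29 UMIs with and 2 without YFP (6.88 times, 1.74 to 59.5), but its UMIs lie in few cells. Stage, genotype and litter cannot be told apart here. Class make-up differed too, with 417 Emx1-gated cells among the 2079 progenitors with YFP and 300 among the 1107 without. The part of class make-up in the ratios over all progenitors was not tested.

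The genes most like 4 of the members over classes were listed by Pearson's r of log2(CPM + 1) over 18 classes of the vesicle, all from 1 library. For Shh these were Sfta3-ps (0.955), Gm26973 (0.939) and 9530036O11Rik (0.920). The last overlaps Shh on the other strand, and whether the counting used strand is not given in the sources used here. For Ptch1 they were Tmtc2 (0.928), Sox1ot (0.850) and Brms1l (0.849), for Gli1 Tns1 (0.921), Daam2 (0.911) and Vcam1 (0.904), and for Gli3 Lrrc1 (0.975), Fras1 (0.974) and Hmga2 (0.970). Over 13 classes of the septal explants Mbip (0.917) stood first for Shh, Olig1 (0.926) for Ptch1, Ggh (0.916) for Gli1 and Bex4 (0.980) for Gli3. Septal Shh had UMIs only in Nkx2-1-gated progenitors and in progenitors in several gates, so that its r rests on those classes. The vesicle classes include non-neural cells and the septal ones do not, and Tns1, Daam2 and Vcam1 were highest in mesenchyme-gated cells.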

How the data were processed

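Both files hold raw counts, UMIs per gene and barcode, as the authors deposited them without normalisation. Per the labels and methods, the septal explants were counted with Cell Ranger 2.1.1 on mm10 with YFP and tdTomato added. The file header of the vesicle names Cell Ranger 7.1.0, the submitters' processing notes mm10, and whether intronic reads were counted is not given in the sources used here. Intron reads would raise the counts of genes with long introns.

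From these counts, barcodes with a mitochondrial share within 3 scaled MAD of the median and no doublet call by Scrublet (scanpy 1.11.5) were kept. The filter on mitochondria removed 383 and 1812 barcodes. Scrublet marked 60 (1.10%, against 4.36% set beforehand as the rate) and 713 (5.72%, against 9.98%), so that some doublets are likely to remain. Total UMIs were 83103280 and 194821794, which sets the counting intervals. The axis is log2((N + 1)/(A + 1)) over 11 neuronal (N) and 9 progenitor (A) genes, split at Otsu's threshold. Neuron gates were Lhx6/Lhx8/Nkx2-1, Isl1/Ebf1, Neurod6/Neurod2 and Trp73/Lhx1/Lhx5, Eomes-gated cells had no Neurod6, and cells with at least 10% globin UMIs, or with endothelial, macrophage or mesenchyme genes, were taken out first. Classes under 50 cells were not compared. Shares were repeated with cells thinned to 8000 (septal explants) and 3500 UMIs, with 511 and 1145 shallower cells left out.

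Intervals were computed with scipy 1.17.1. The calls were tested on simulated data. Significance was not tested, since each tissue has 1 library. A gene not detected was given 3 counts as its limit. Text names the members, pathway genes called past 2-fold except for a result that is not reported here, and the 3 genes most like Shh, Ptch1, Gli1 and Gli3 among those with at least 200 UMIs. The members, gates and lists were chosen with earlier results of these data known. Alternatives were gates of 1 and 3 UMIs, no doublet or mitochondrial filter, no cells near the threshold, means over cells, thinning, other UMI minimums and 1.5-fold. Per GENCODE on GRCm38, Shh lies on the minus strand of chromosome 5 (28456815 to 28467256), Ptch1 on 13 (63508328 to 63573598), Gli1 on 10 (127329882 to 127341974) and Gas1 on 13 (60174405 to 60177365). Ptch1, Gli3, Smo, Boc and Cdon each overlap 1 other annotated gene on the same strand, so that their counts can depend on how shared reads were assigned.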

Additional observations from a re-analysis of the deposited data

Results flagged for a closer look

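A signal of Gli1 was seen in a class that the comparisons do not use. In the 507 mesenchyme-gated cells of the telencephalic vesicle, chosen by Col1a1, Col1a2, Col3a1, Lum, Pdgfra, Foxc1 and Twist1, Gli1 was at 14.1 CPM (11.7 to 16.8), above the 7.18 CPM (5.88 to 8.67) of Nkx2-1-gated progenitors, the highest neural class, and above the globin-gated cells, which had no Gli1 UMI. It was found in 92 of these cells (18.2%). Their Ptch1 was at 98.4 CPM and their Shh at 4.49 CPM, 38 UMIs in 9 cells.

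Shh went in opposite directions between progenitors and neurons in the libraries. In the septal explants it was at least 3.27-fold higher in progenitors, with 38 UMIs against 0, and in the vesicle it was at 0.395 times, 12.6 CPM in progenitors against 31.9 in neurons. This difference was not tested, with 1 library each. The septal explants held 6 neurons in the Lhx6/Lhx8/Nkx2-1 gate, the class with 338 of the 403 Shh UMIs in vesicle neurons.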

How the results depend on the processing

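No paired analysis was possible because each tissue has 1 library and no result comes from a test over samples. For the members, 844 of 899 ratios under 10 alternatives kept their call or stayed uncalled, 27 lost the call and 27 gained it. The 1 called ratio that turned was Gli1 between Gsx2-gated and Emx1-gated progenitors of the vesicle, at 0.691 in thinned cells. Whether an uncalled ratio crossed 1 was not checked. Other UMI minimums and the 1.5-fold limit leave the ratio itself unchanged. Of 91 ratios, 64 kept their call or stayed uncalled under every alternative that gave a value. Counts of genes higher and lower in the first class moved by over 1.5 times mainly with a 1.5-fold limit. They were then 993 and 693 (Nkx2-1 against Emx1), 569 and 593 (Gsx2 against Emx1), 1693 and 648 (Fgf8/17/18 against Emx1) and 3504 lower (progenitors against neurons) in the septal explants. In the vesicle they were 1424 and 1199, 967 and 852, 1933 and 774 in the same order, 1735 and 1345 (Lmx1a/Wnt3a/Wnt2b against Emx1), 4071 higher (progenitors against neurons) and 2652 lower (Nkx2-1 progenitors against Lhx6/Lhx8/Nkx2-1 neurons). Thinned cells of the vesicle, with fewer UMIs, gave 544 and 389 (Nkx2-1), 349 and 303 (Gsx2), 648 higher (Fgf8/17/18) and 588 and 437 (Lmx1a/Wnt3a/Wnt2b). A minimum of 50 UMIs, which tests fewer genes, gave 195 higher (Gsx2, septal explants) and 844 higher (Fgf8/17/18, vesicle), and a gate of 1 UMI 447 lower (Lmx1a/Wnt3a/Wnt2b), for which the cause was not tested. Gli1, Hhip and septal Shh rest on few UMIs, so that depth limits their values. The comparisons with the Lmx1a/Wnt3a/Wnt2b and Lhx6/Lhx8/Nkx2-1 classes were not run in the septal explants, which had 16 and 6 such cells.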

Other observations

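Outside the neural classes, the vesicle had mesenchyme-gated cells with 135.9 CPM of Cdon (128.2 to 144.0) and 158.5 of Gas1 (150.1 to 167.2), both well above the globin-gated cells at 7.34 and 12.7 CPM. The 68 endothelial-gated cells had 698.1 CPM of Gli3 and 16 Shh UMIs in 5 cells, at a median depth of 40452 UMIs against 9058.5 over all kept cells, and the part of doublets in this was not tested.

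Promoter windows of 300 bases (250 before to 50 after the start, RefSeq, GRCm38.p6) were listed for 7 of the 10 members, not for Shh, Gli1 and Boc. The Gli binding motif GACCACCCA was searched on both strands. It occurs in 0 of the 7 and in 0.253% of all 32851 windows, which says only that these letters are not in those windows.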
